A study of Mus musculus with 8 samples.

Results

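Mta2-only regions are stretches of the mouse genome where a peak was listed for Mta2 and none for Mbd3 or Zbtb7a. They were found by merging the 3 deposited peak lists on 19 autosomes and chromosome X into union regions whose peaks share at least 1 bp, and by keeping the regions that hold Mta2 alone. The members were thus chosen by the authors' peak calls in all 3 lists. The rule gave 23165 Mta2-only regions, which were 14.1% of 164813 union regions and 15.6% of the 148099 regions holding a Mta2 peak. Each holds 1 Mta2 peak. The other regions holding Mta2 were 101152 with all 3 factors, 17832 with Mta2 and Mbd3, and 5950 with Mta2 and Zbtb7a. The data are chromatin immunoprecipitation with sequencing (ChIP-seq) of kidney cortex from mice aged 2 months, all of genotype Mta2flx/flx, in which the Mta2 alleles carry loxP sites. No Cre driver, treatment or knockout group is named, so every group shares the same genotype. The groups were ChIP for Mta2, Mbd3 and Zbtb7a, and Input chromatin, with 2 biological replicates each, and the titles give the replicates the same pair of sample numbers in every group. Each factor has 1 list that stands for both replicates, so no value per mouse, SD or test over animals can be given, and intervals below are exact (Clopper-Pearson) 95% binomial intervals that cover counting error only. The reads stated per library are 100 M, and the depth behind each list was not analysed here. A place without a peak lay below the authors' threshold and cannot be read as unbound. The count moved by over 1.5 times with the lists: it was 11795 when all lists were cut to the length of the shortest (124616 peaks) and 3558 when Mta2 peaks alone had to have a −log10 q of at least 10.

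Mta2 is a core subunit of NuRD, the nucleosome remodelling and deacetylase complex, which joins a chromatin remodelling ATPase to histone deacetylases. Mbd3 is a methyl-CpG-binding-domain subunit of the same complex, and its paralog Mbd2 can take its place in an alternative form of NuRD. Zbtb7a is a zinc finger transcription factor known to interact with NuRD. NuRD sits at active promoters and enhancers in many cell types and is also known for holding developmental genes in check. Kidney cortex is mainly proximal tubule, with glomeruli, distal tubules, vessels and stroma. In bulk tissue, strong binding in few cells and weak binding in many cells cannot be told apart.

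Promoter sequences are shown for 7 genes taken from rankings of Mta2 fold at gene ends, over all genes and within gene lists. They show the range of base composition under Mta2-only regions, from CpG-dense to CpG-poor starts. So few sequences cannot show how classes of genes differ. Fold is the authors' own enrichment at the peak's summit. Each line gives the 250 bases before a transcription start in the RefSeq promoter table (build GRCm38.p6, whose coordinates are those of mm10), 5′ to 3′ on the gene's strand, with every CpG in capitals. Syt10 encodes a synaptotagmin, a calcium sensor of vesicle release, and its window is chr15:89841861-89842110, minus strand. Gdnf encodes the ligand that draws out the ureteric bud, and the window of its second start is chr15:7813477-7813726, plus strand. This window lies away from the gene end by which Gdnf was ranked. Kcnk15 encodes a subunit of the background potassium channel family, at chr2:163853500-163853749, plus strand. T encodes brachyury, a transcription factor of the mesoderm, at chr17:8434173-8434422, plus strand. Alb encodes the liver's serum albumin, at chr5:90460620-90460869, plus strand. Lyz2 encodes a lysozyme of macrophages, at chr10:117282273-117282522, minus strand. Hrg encodes a plasma glycoprotein of the liver, at chr16:22950822-22951071, plus strand.
Syt10: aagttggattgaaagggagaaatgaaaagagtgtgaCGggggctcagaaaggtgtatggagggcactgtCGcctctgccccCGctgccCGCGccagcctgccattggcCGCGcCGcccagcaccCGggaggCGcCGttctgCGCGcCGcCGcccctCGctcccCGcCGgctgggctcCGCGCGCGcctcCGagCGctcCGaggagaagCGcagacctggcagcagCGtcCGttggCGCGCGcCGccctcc
Gdnf: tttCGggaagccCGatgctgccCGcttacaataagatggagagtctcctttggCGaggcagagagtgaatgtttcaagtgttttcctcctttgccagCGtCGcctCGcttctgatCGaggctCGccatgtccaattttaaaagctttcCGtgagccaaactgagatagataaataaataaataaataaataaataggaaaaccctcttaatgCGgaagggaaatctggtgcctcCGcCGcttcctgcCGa
Kcnk15: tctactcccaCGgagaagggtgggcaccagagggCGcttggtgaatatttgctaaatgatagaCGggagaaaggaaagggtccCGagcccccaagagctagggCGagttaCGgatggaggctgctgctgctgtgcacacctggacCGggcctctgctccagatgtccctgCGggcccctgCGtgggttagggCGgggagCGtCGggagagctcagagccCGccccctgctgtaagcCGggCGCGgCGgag
T: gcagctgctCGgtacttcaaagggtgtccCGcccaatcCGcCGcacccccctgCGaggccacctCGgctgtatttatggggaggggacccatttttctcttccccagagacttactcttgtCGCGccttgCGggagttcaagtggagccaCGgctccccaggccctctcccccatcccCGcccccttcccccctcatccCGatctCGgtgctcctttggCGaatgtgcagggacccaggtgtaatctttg
Alb: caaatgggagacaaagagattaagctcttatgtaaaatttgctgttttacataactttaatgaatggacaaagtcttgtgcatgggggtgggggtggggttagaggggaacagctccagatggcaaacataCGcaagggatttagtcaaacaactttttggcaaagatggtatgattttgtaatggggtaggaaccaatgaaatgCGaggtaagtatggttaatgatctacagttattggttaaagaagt
Lyz2: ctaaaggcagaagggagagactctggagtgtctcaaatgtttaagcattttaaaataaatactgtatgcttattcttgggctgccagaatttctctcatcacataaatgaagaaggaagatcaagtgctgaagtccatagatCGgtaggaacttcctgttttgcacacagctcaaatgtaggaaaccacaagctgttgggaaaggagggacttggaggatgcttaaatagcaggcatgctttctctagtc
Hrg: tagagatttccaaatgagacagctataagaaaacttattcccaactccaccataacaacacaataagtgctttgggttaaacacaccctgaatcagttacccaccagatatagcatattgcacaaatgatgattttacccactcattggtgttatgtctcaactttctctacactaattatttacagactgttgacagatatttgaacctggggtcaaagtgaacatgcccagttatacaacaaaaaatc

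The printed Syt10 window holds 32 CpGs at a GC content of 72.0%, and all 250 bases lie inside a Mta2-only region of fold 8.37. The Kcnk15 window holds 17 CpGs and lies whole inside a region of fold 5.74. The Gdnf window holds 14 CpGs and lies whole inside a region of fold 6.11. These are CpG-dense sequences. The T window also holds 14 CpGs, and 155 of its bases lie inside a region of fold 5.01. The Alb window holds 2 CpGs, the Lyz2 window 1 and the Hrg window 0. Regions of fold 4.07, 3.34 and 5.01 cover 250, 124 and 200 bases of the Alb, Lyz2 and Hrg windows, so Mta2 peaks without another factor lay over both kinds of sequence.

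Mta2-only regions were weak and narrow peaks of the Mta2 list. Their median Mta2 fold was 2.92, against 7.72 in all-3 regions, and their median width was 239 bp, against 638 bp. From the 5th to the 95th percentile the fold of Mta2-only regions ran over 2.19 to 4.43, and their median −log10 q was 5.78, against 44.5 in all-3 regions. Regions of Mta2 and Zbtb7a were close to them, with medians of 3.13 in fold, 303 bp in width and 6.86 in −log10 q. Regions of Mta2 and Mbd3 had 3.65, 344 bp and 9.80, so low fold and narrow width were not particular to Mta2-only regions. These values come from the peak calls that the rule used, so they describe the regions and carry no test. A fold over 4 was reached by 2316 Mta2-only regions (10.0%), over 5 by 465 and over 6 by 76. The share of Mta2 regions that were Mta2-only was 56.2% at a fold of 2 to 2.5, 36.3% at 3 to 3.5, 10.6% at 4 to 5 and 0.465% at 6 to 8. At a fold of 8 or more it was 1 of 49304 regions, the one at Syt10. The fold values themselves are coarse: 69.9% of Mta2-only regions, against 41.0% of all-3 regions, had a fold within 0.0001 of a whole multiple of 0.104, so many regions tie.

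**Figure D1:**
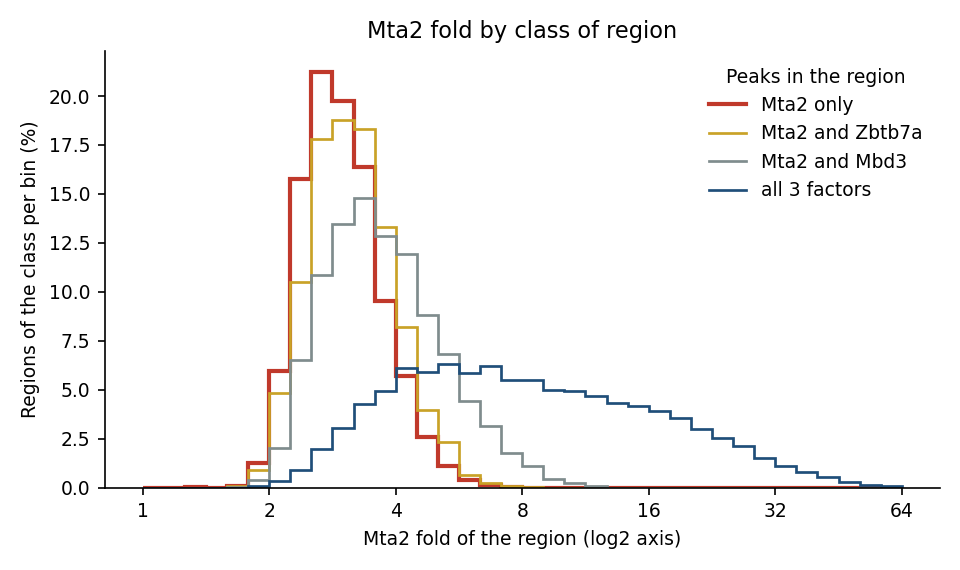
Share of regions (%) in each bin of Mta2 fold (log2 axis) for Mta2-only regions, regions of Mta2 and Zbtb7a, regions of Mta2 and Mbd3, and regions of all 3 factors. Mta2-only regions are centred on a fold of 2.92 and end at 8.37, while all-3 regions are centred on 7.72.

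Few regions lay within 50 bp of the border of the rule, and wider settings moved the count more. It went from 23165 to 19017 when peaks up to 500 bp apart counted as 1 region. It went to 27811 when a peak was shared only from 50% of the Mta2 peak covered. Under the main rule there were 67 Mta2-only regions with a peak of another factor within 50 bp. Of these, 1 touched it, and the median fold was 2.48. Just outside the rule, 128 Mta2 peaks had 1 to 50 bp covered by another factor, with a median fold of 2.40. Most Mta2-only regions lay farther from other peaks. The nearest Mbd3 or Zbtb7a peak was at a median distance of 2609 bp, and 27.7% of Mta2-only regions had one within 1 kb. The nearer of the other factors was Mbd3 for 66.7% of regions and Zbtb7a for 32.8%, while the Mbd3 list is also longer (134248 peaks, against 124616 for Zbtb7a). Mta2-only regions lay at a median of 3818 bp from the nearest all-3 region, against 2409 bp between an all-3 region and the next one. At the far end, 285 Mta2-only regions (1.23%) had no other factor within 100 kb.

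Gene ends were seldom the site of Mta2-only regions. A summit within 1 kb of either end of a protein-coding gene was found for 4.76% of Mta2-only regions (1103 regions, interval 4.49 to 5.04%), against 14.1% of all-3 regions (13.9 to 14.3%). The share was lower in Mta2-only than in all-3 regions on 20 of 20 chromosomes. Inside gene spans and away from ends lay 54.3% of Mta2-only regions, against 50.3% of all-3 regions, and outside genes 40.9%, against 35.6%. The order inside genes turned when all-3 regions were weighted to the bins of Mta2 fold of Mta2-only regions. So weighted, 58.2% of all-3 regions lay inside genes and 35.5% outside. Regions with Mta2 and Mbd3 (3.89% at ends) and with Mbd3 alone (3.70%) were near or below the Mta2-only value, and regions with Mta2 and Zbtb7a (6.42%) or Zbtb7a alone (7.39%) were above it.

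Fold and width moved with this share, and their part in it was not tested. The share at gene ends was 4.76% in Mta2-only regions, against 6.29% in all-3 regions weighted to the same fold bins. In each bin from a fold of 2 to 8 the Mta2-only share was the lower one, with intervals that do not overlap at 2 to 2.5 (5.14%, against 7.42% in all-3 regions), 3 to 3.5 (4.41%, against 6.17%) and 3.5 to 4 (4.10%, against 6.05%). Below a fold of 2 it was 6.88% of 320 Mta2-only regions, against 5.56% of 108 all-3 regions, with intervals that overlap. By width the picture differed. Under 200 bp, a width with 24.0% of Mta2-only regions, 4.06% of 5560 lay at ends, against 6.98% of only 43 all-3 regions. Among regions of 200 to under 300 bp, 4.34% of Mta2-only regions lay at ends, against 4.41% of all-3 regions. At 500 to under 1000 bp the shares were 10.9% of 875 Mta2-only regions and 9.89% of all-3 regions. At 1 kb or more they were 13 of 34 Mta2-only regions (38.2%, interval 22.2 to 56.4%) and 33.5% of all-3 regions. The width of an all-3 region spans the peaks of all its factors, so equal widths are not equal Mta2 peaks.

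**Figure D2:**
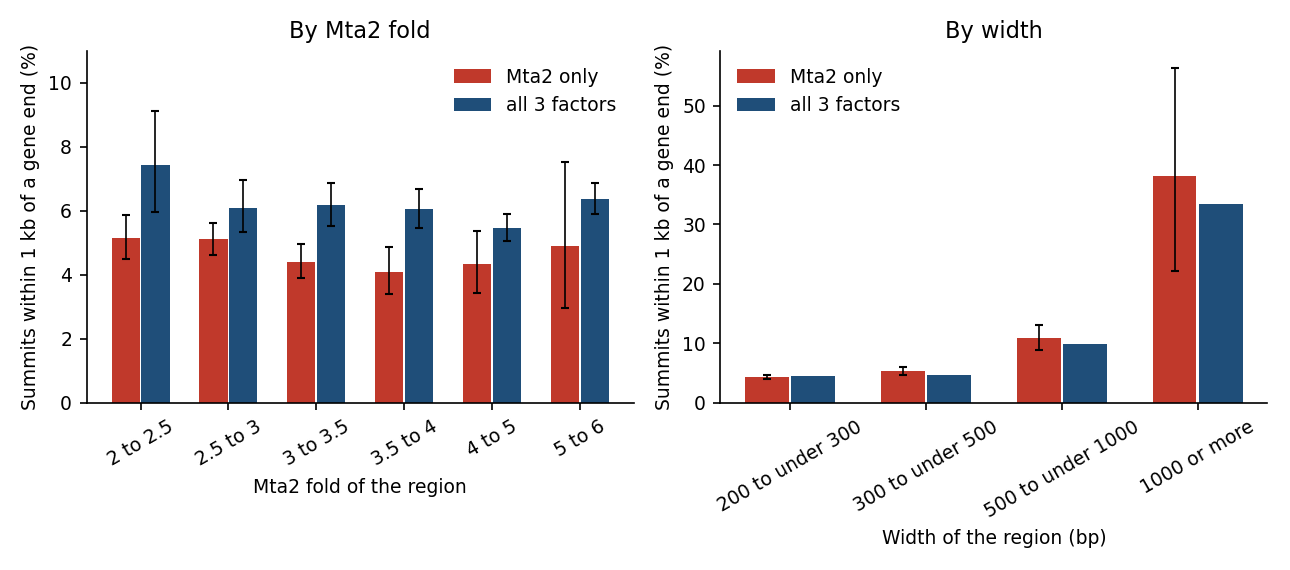
Share of summits lying up to 1 kb away from an end of a protein-coding gene (%) for Mta2-only and all-3 regions, by Mta2 fold (left) and by width of the region in bp (right). Widths under 200 bp are not drawn. Bars are shares and whiskers exact 95% binomial intervals (right panel: Mta2-only regions); in the fold bins drawn, 2 to 6, the Mta2-only bars are lower (5.14%, against 7.42%, at 2 to 2.5), with whiskers that overlap at 2.5 to 3, 4 to 5 and 5 to 6, and by width both classes reach their highest share at 1000 bp or more (38.2%, against 33.5%).

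Those Mta2-only summits that did lie at gene ends were split between the 5′ and the 3′ end. Among the 17274 genes with a strand in the promoter table, and counting summits near 1 kind of end, 446 Mta2-only summits were at a 5′ end and 402 at a 3′ end, a 5′ share of 52.6% (49.2 to 56.0%). In all-3 regions the 5′ share was 83.4% (82.7 to 84.1%). In all-3 regions with a Mta2 fold under 4 it was 49.9% (46.3 to 53.6%), close to the Mta2-only value, and the 5′ share of Mbd3-only regions was 42.7% and of Zbtb7a-only regions 42.0%. By gene, 1109 of 21631 protein-coding genes (5.13%) had a Mta2-only summit within 1 kb of an end, with a median fold of 2.92. An all-3 summit lay near an end of 637 of these genes as well (57.4%). Genes with a Mbd3-only summit near an end numbered 275 (1.27%) and those with a Zbtb7a-only summit 600 (2.77%). Of the 1109 genes with a Mta2-only summit near an end, 379 had neither a Mbd3 nor a Zbtb7a summit near either end, which is 34.2% of the 1109 and 1.75% of all protein-coding genes.

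Ranked by fold, the genes whose ends held Mta2-only regions and no summit of another factor began with Syt10 (fold 8.37, at its 5′ end). It was followed by Cbln2, a synapse organiser of the cerebellin family (7.93). Tenm2, a teneurin adhesion protein of synapses, had 5.95 at its 5′ end, and the potassium channel gene Kcnk15 had 5.74. Next came Adrb3, a beta adrenergic receptor of fat tissue (5.53), Shh, the ligand Sonic hedgehog (5.32), Sobp (5.21, at its 3′ end), Lamtor3-ps (5.14), Hrg (5.01) and LOC115486424 (5.01). At 5.01, Prg4, which encodes a lubricating proteoglycan of joints, and T tie with Hrg and LOC115486424, and T shares its region with LOC115486424. The Syt10 region at chr15:89841635-89842131 was the strongest of all Mta2-only regions, and the nearest peak of another factor was 143940 bp away. It was also the 1 Mta2 region counted inside the gene. The Cbln2 region lay just outside its gene, and the 1 Mta2 region inside that gene was also Mta2-only, while Tenm2 held 31 Mta2 regions, of which 3 were Mta2-only and 14 all-3.

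Among 17 gene lists, developmental transcription factors of other tissues had the highest share of genes with a Mta2-only summit at an end. It was 15 of 62 genes (24.2%), against 5.13% of all protein-coding genes, with a median fold of 3.02, against 2.92 over all genes with such a summit. The region was at the 5′ end of 12 of the 15, and 8 of the 15 had no Mbd3 or Zbtb7a summit at either end, against 379 of 1109 genes (34.2%) in all. The highest folds were at T (5.01), at Pax1, a paired box factor of the sclerotome (4.59, chr2:147362236-147362642), and at Gsc, the homeobox gene of the gastrula organizer (3.96, at its 3′ end). En1 of the midbrain and Six3 of the forebrain and eye had 3.75 each, Neurog1 of sensory neuron precursors had 3.44, Sox2 of neural progenitors had 3.15 and Olig2 of the oligodendrocyte lineage had 3.02. Foxa2 and Pax7 had 2.71 each, Barhl1 2.61, Pax6 2.22, Foxd3 2.13 and Barhl2 1.92. T and Pax1 lay above the 95th percentile of all Mta2-only regions (4.43), and Foxd3 and Barhl2 lay below the 5th (2.19). A Mbd3-only summit lay at an end of 1 gene of this list and a Zbtb7a-only summit at ends of 3 (1.27% and 2.77% of all genes). The genes are short, with a median length of 5.76 kb, against 17.3 kb over all protein-coding genes.

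Inside the developmental transcription factor genes, 44 of 117 Mta2 regions were Mta2-only (37.6%), against 13533 of 87468 (15.5%) over all protein-coding gene spans. A region in overlapping genes was counted for each. Nkx2-2, a homeobox factor of ventral spinal cord and pancreas, held 7 Mta2-only among 10 Mta2 regions in 18.95 kb. Six3 held 4 of 5 and En1 2 of 3.

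Synaptic and neuronal genes came next. A Mta2-only summit lay at an end of 11 of 48 (22.9%), with a median fold of 3.13, and all 11 lacked a Mbd3 or Zbtb7a summit at either end, against 34.2% of all genes with a Mta2-only summit at an end. After Syt10 and Cbln2 the highest was Kcnq3, a voltage-gated potassium channel (4.90, chr15:66286496-66286882). Slc32a1, the vesicular GABA transporter, had 4.28, and Nlgn1, a neuroligin of the synapse, had 3.75. Grin2a, an NMDA receptor subunit, Cacna1e, a calcium channel, and Rbfox1, a neuronal splicing factor, had 3.13 each. Camk2a had 3.02 and Syt4 2.66. A Mbd3-only summit lay at an end of 1 gene of this list and a Zbtb7a-only summit at 0. Inside these genes 81 of 376 Mta2 regions were Mta2-only (21.5%), with the most in Dlg2 (9 of 33) and Rbfox1 (8 of 42). Their median length was 92.1 kb. At a −log10 q of at least 10 in the Mta2 list alone, 4 synaptic genes (8.33%) and 3 developmental genes (4.84%) were left at ends, against 0.740% of all genes. With that limit in all 3 lists, where a region can also be Mta2-only because a weaker Mbd3 or Zbtb7a peak is dropped, they were 9 (18.8%) and 11 (17.7%), against 3.46% of all genes.

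Lists of kidney cell types and kidney disease lay on both sides of the background of 5.13% with a Mta2-only summit at an end. Among 30 proximal tubule genes 1 (3.33%) had one, Slc27a2, a fatty acid transporter and acyl-CoA synthetase (fold 2.58). Of these 30 genes, 28 had a Mta2 region of some class at an end. Among 28 podocyte genes 1 (3.57%) had one, Tcf21, a transcription factor of podocytes and stroma (3.13). None was found among 31 genes of the loop of Henle and distal nephron, 14 endothelial genes or 36 genes in which mutations cause nephrotic syndrome or FSGS (focal segmental glomerulosclerosis). These counts lie near or below the background of 5.13%. Among 22 nephron progenitor genes the count was 2 (9.09%), Gdnf (4.91, chr15:7810057-7810963) and Osr1, a factor of early kidney mesoderm (3.44). Among 16 mesangial, stromal and smooth muscle genes it was 1 (6.25%), the matrix gene Dcn (2.61). Both of these shares are above the background but rest on 2 genes and 1 gene.

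Inside gene spans the kidney lists also lay on both sides of the background of 15.5%. Mta2-only regions were 27 of 265 Mta2 regions in proximal tubule genes (10.2%), 22 of 194 in loop and distal nephron genes (11.3%), 46 of 354 in podocyte genes (13.0%) and 65 of 449 in FSGS genes (14.5%). In FSGS genes 29 of these were in Arhgap24, a Rac-specific GTPase-activating gene of podocytes. They were 24 of 138 in endothelial genes (17.4%), with 7 of 22 in the ETS factor gene Erg. In mesangial, stromal and smooth muscle genes they were 21 of 64 (32.8%), of which Pdgfrb, the PDGF receptor of mesangial cells and pericytes, held 6 of 13 and Itga8, an integrin of mesangial cells and nephron progenitors, 5 of 19.

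Of the other lists, immune cell genes had 2 of 16 with a Mta2-only summit at an end (12.5%), against 5.13% of all genes. They were Lyz2 (3.34) and the macrophage gene Cd68 (3.08). Fatty acid oxidation had 3 of 26 (11.5%), Acaa2 (4.48), Slc25a20 (3.23) and Cpt2 (3.02), each with Mbd3 and Zbtb7a summits at an end as well. These shares are above the background but rest on 2 and 3 genes. Oxidative phosphorylation and the TCA cycle had 2 of 29 (6.90%), Cox5a (3.23) and Fh1 (2.71). Hepatocyte genes had 1 of 18 (5.56%), Alb (4.07), and ribosomal proteins 1 of 30 (3.33%), Rpl27 (2.78). Germ cell genes (16) and heat shock protein genes (20) had 0.

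**Figure D3:**
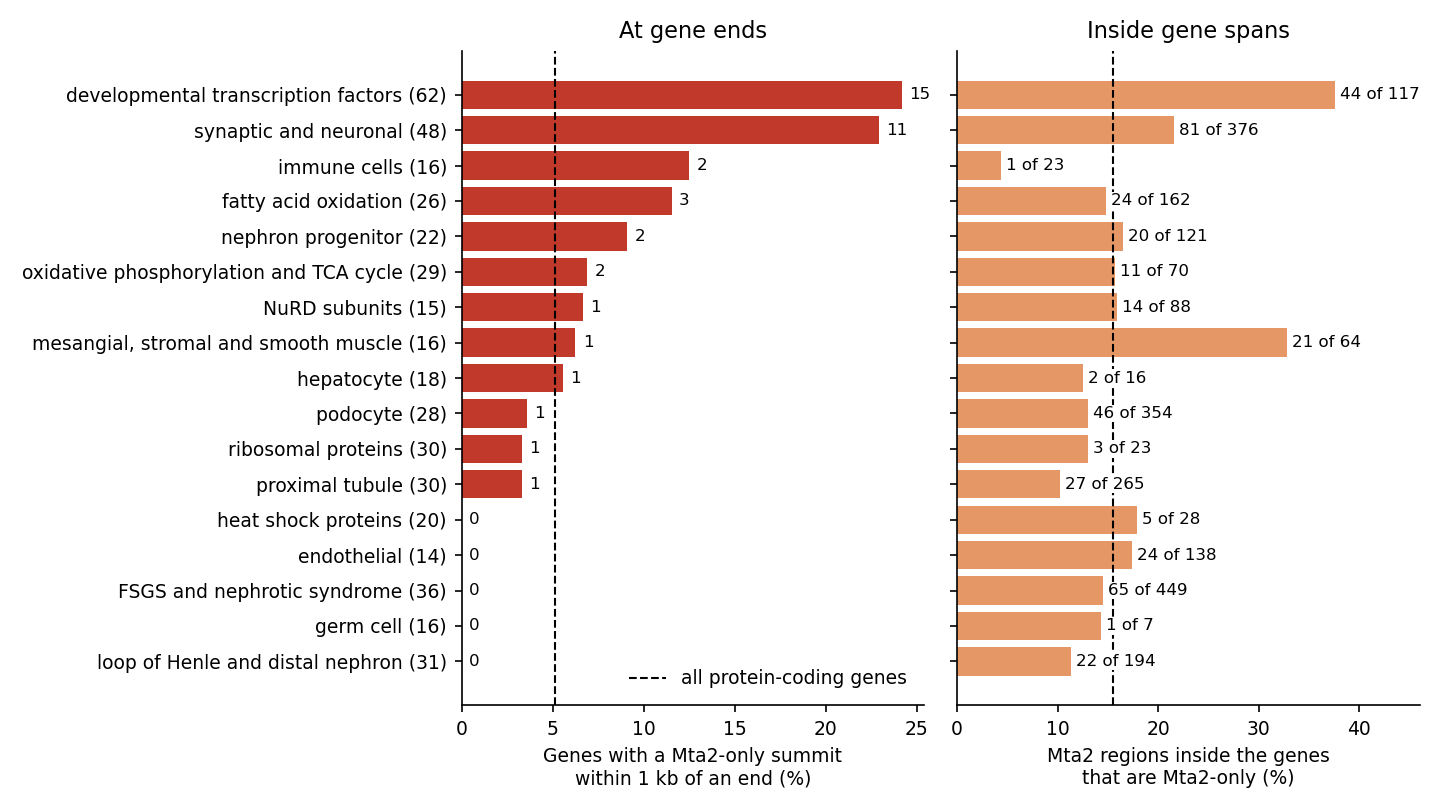
Left, share of each list's genes with a Mta2-only summit within 1 kb of an end (%), with the number of genes beside the bar and the list's size in brackets. Right, share of Mta2 regions inside the genes that are Mta2-only (%). Dashed lines are the values over all protein-coding genes, 5.13% and 15.5%; developmental transcription factors lead both panels at 24.2% and 37.6%.

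The genes of NuRD itself had a Mta2-only summit at an end in 1 of 15 (6.67%), near the background of 5.13% of all protein-coding genes. Of 15 subunit genes, Hdac2, a deacetylase, had one at its 3′ end (2.61, chr10:37001836-37002051), and all 15 had a Mta2 region of some class at an end. Inside the 15 genes 14 of 88 Mta2 regions were Mta2-only (15.9%), which is near the background of 15.5%. Mbd2 held 4 of 20, Mta3 3 of 8 and Rbbp4, a histone chaperone, 2 of 7. Chd4 and Chd5, remodelling ATPases, Mta1, Gatad2b and Hdac1 held 1 each. The genes Mta2, Mbd3, Cdk2ap1, Chd3, Gatad2a, Hdac2 and Rbbp7 held 0, as did Zbtb7a among its 4 Mta2 regions.

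Within gene spans, at least 1 Mta2-only region lay inside 5880 genes (27.2%), and 656 genes held 5 or more. The median length of the 5880 was 58.8 kb, and a long gene has more room for a region. The most were 29 each in Arhgap24 and in Arhgap26, which encodes a GTPase-activating protein. Pde4d, a cAMP phosphodiesterase, and Rora, a nuclear receptor, held 27 each, the receptor phosphatase gene Ptprg held 23, and Itpr1, a calcium release channel, and Tcf4, a bHLH factor, 22 each. Foxp1 and Tshz2, both transcription factors, held 21 each and Arhgef3 20. These 10 were chosen for their counts, and their Mta2-only share of Mta2 regions, 17.9% in Arhgap26 to 31.4% in Tcf4, is given as a description. An all-3 summit lay near an end of 76.5% of genes with a Mta2-only region inside, against 62.7% of all protein-coding genes. In 497 genes every Mta2 region inside was Mta2-only, and 74 of these held 2 or more. Per length, a ranking chosen after the values were seen put Nkx2-2 first at 36.9 per 100 kb, followed by the flavin monooxygenase gene Fmo2 at 20.5 (5 of 10 Mta2 regions), Rgs5, a G-protein regulator of pericytes, at 17.4 (7 of 11) and Pik3r1, a regulatory subunit of PI3 kinase, at 17.2 (15 of 48).

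Promoter windows, which run over 250 bases before and 50 after each RefSeq start, were seldom covered. Mta2-only regions overlapped 374 of 32619 windows (1.15%), which belong to 341 genes. CpG-rich windows, with a ratio of observed to expected CpG over 0.6 and a GC content over 50%, were 24.6% of the 374 (20.3 to 29.3%), against 62.2% of 16518 windows under all-3 regions (61.5 to 63.0%). The 530 windows under all-3 regions of Mta2 fold below 4 had 19.1% (15.8 to 22.7%), which overlaps the Mta2-only interval. The median number of CpGs was 7 under Mta2-only regions, against 20 under all-3 regions. Under regions of Mta2 and Mbd3 the CpG-rich share was 27.1%, and under regions of Mta2 and Zbtb7a 23.5%, on both sides of the Mta2-only value. Windows without any peak had 2.53% CpG-rich, those under Mbd3-only regions 3.61% and those under Zbtb7a-only regions 11.9%. Windows of lncRNA genes made up 43.6% of those under Mta2-only regions, against 18.8% under all-3 regions and 34.5% under those of Mta2 fold below 4. The same share was 43.4% under Mbd3-only regions, 39.0% under regions of Mta2 and Mbd3, 53.8% under no peak and 35.5% of all windows, so the Mta2-only value lies within the range of the other sets. Of all 10933 CpG-rich windows, 94.0% lay under all-3 regions, 0.841% under Mta2-only regions and 3.43% under no peak.

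**Figure D4:**
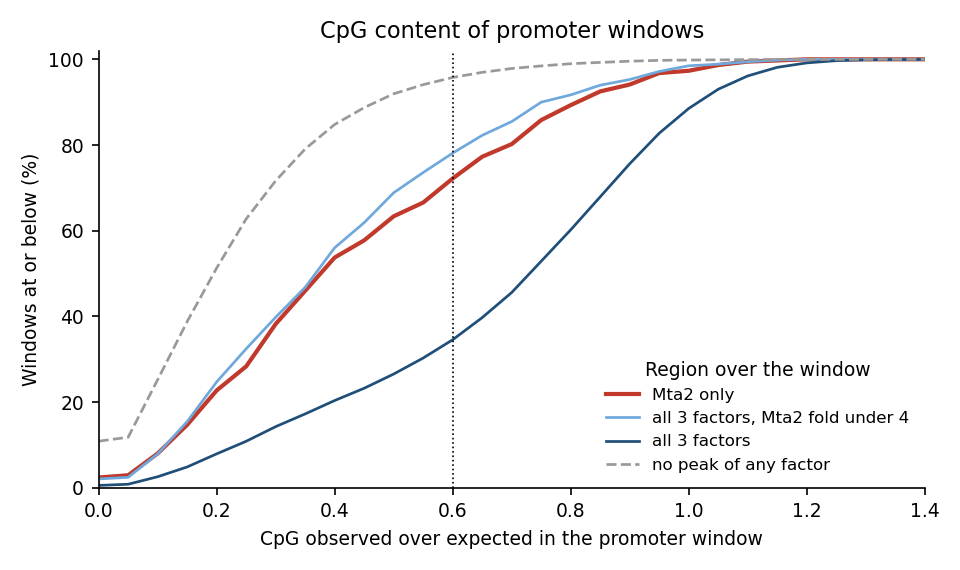
Cumulative share of promoter windows (%) by the ratio of observed to expected CpG, for windows under Mta2-only regions, under all-3 regions with a Mta2 fold below 4, under all all-3 regions, and under no peak. The dotted line marks 0.6; the Mta2-only curve runs close to that of the weak all-3 regions, with median numbers of 7 and 8 CpGs per window.

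The 92 CpG-rich windows had a median Mta2 fold of 3.34, against 2.92 in the 282 others, and belong to 67 protein-coding and 20 lncRNA genes. Syt10, Gdnf and Kcnk15 led in fold, followed by Wnt2, a secreted Wnt ligand (5.11), T, Nkx2-2 (4.48), the receptor phosphatase gene Ptprz1 of glia (4.43) and Sst, which encodes somatostatin (4.38). Egflam (4.28), Tcfl5 (4.17) and Gm40453 (4.17) came after Sst. The genes named here were read off this ranking after it was seen. Those that follow are a selection and do not describe the 92 windows as a whole. Genes passed over include Hs3st4 (3.75), Rbp4 (2.92), Fbxo39 (2.77), Acan (2.29) and Mmp25 (1.97), and the 20 lncRNA genes are not named. Gad1, which makes GABA, and Egr4 had 3.86 each, the dopamine receptor gene Drd2 and the cortical factor Fezf2 had 3.86 each, Mnx1 of motor neurons and Gria4, an AMPA receptor subunit, had 3.34 each, Cdx2 of the hindgut had 3.13 and Ptf1a of pancreas and cerebellum had 2.61. Of 36 CpG-rich windows of the developmental transcription factor list, 5 lay under Mta2-only regions, 17 under all-3 regions and 10 under no peak. Of 17 in the synaptic list the counts were 2, 10 and 3. Windows under Mta2-only regions that were not CpG-rich included those of Foxa2 and Pax7 (developmental list) and Rbfox1 (synaptic list). In the lists of ribosomal proteins (19 windows), oxidative phosphorylation (23) and fatty acid oxidation (12), every CpG-rich window lay under an all-3 region. Mta2-only regions overlapped 5 of 1005 miRNA hairpins (0.498%), those of Mir7018, Mir344-2, Mir425, Mir8103 and Mir106a, while all-3 regions overlapped 166.

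Short motifs were counted in the same windows on both strands. GGGCGG, the GC box of Sp factors, was in 28.6% of windows under Mta2-only regions, against 60.4% under all-3 regions, 33.4% under all-3 regions of Mta2 fold below 4, 8.91% under no peak and 35.9% of all windows. The ETS motif CTTCCGG was in 3.74%, against 15.4%, 5.28%, 2.22% and 8.92% of the same sets. AGATAA, the motif bound by GATA factors, was in 17.6% of windows under Mta2-only regions, against 6.18%, 10.0%, 16.8% and 11.2%. TGANTCA, the AP-1 motif, was in 11.2%, against 5.05%, 8.11%, 10.8% and 7.85%, and in 13.3% under Mbd3-only and 11.9% under Zbtb7a-only regions. Both motifs were thus about as frequent under no peak as under Mta2-only regions. TATAAA was in 9.63%, against 7.14%, 11.3%, 21.2% and 13.7%, and CCAAT in 35.6%, against 36.3%, 32.1%, 39.3% and 37.6%. Base composition differs between these sets, as the CpG counts show, and its part in the motif shares was not tested. A GGGCGG motif occurs in the printed sequences of Syt10 (3), Kcnk15 (2) and T (2), AGATAA once in that of Gdnf, and TGANTCA once in that of Hrg.

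The 10 widest Mta2-only regions are a ranking chosen after the values were seen. Regions of 2126 bp lay 265 bp from an end of Neurog3, the bHLH factor of endocrine pancreas (fold 4.07), and 1687 bp from an end of Gad1 (3.86). Next were Bhlhe23 (2022 bp), the protocadherin gene Fat3 (1997 bp), Slc18a3, the vesicular acetylcholine transporter (1777 bp), Nr2e1, a nuclear receptor of neural stem cells (1769 bp), and Slc32a1 (1682 bp). Kcnk9 (1669 bp), Egflam (1445 bp) and Prdm12 (1351 bp) complete the ranking. The folds of these 10 were 2.92 to 4.48. Of the 34 Mta2-only regions of 1 kb or more, 9 overlapped a CpG-rich promoter window (26.5%), against 0.176% of those of 200 to under 300 bp. The 85 Mta2-only regions over a CpG-rich window had a median width of 497 bp, against 266 bp in the 252 over other windows.

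Of the 10 strongest Mta2-only regions, those at Syt10 and Cbln2 were at gene ends and the other 8 were not. The third lay 5166 bp from an end of Hspa8, a constitutive chaperone gene, with fold 7.51, and 499 bp from a peak of another factor. Regions of fold 7.41 lay near Frmd6, inside Grin2a (2214 bp from its end) and inside Spred1, an inhibitor of Ras signalling. A region of 7.20 lay inside Rprd1b, 1 of 7.09 inside Galnt10, which starts mucin-type O-glycosylation, and 1 of 6.99 lay 3523 bp from an end of Luzp1. The region near Gm6760 on chromosome X (7.09) was the most remote of the 10, at 391220 bp from the gene and 407814 bp from another factor's peak. At Cbln2 the nearest peak of another factor was 326337 bp away, and in the other 7 it was 499 bp to 33865 bp away, so strong Mta2-only regions were found both beside and far from peaks of Mbd3 and Zbtb7a.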

How the data were processed

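Kidney cortex was crosslinked with 2 mM disuccinimidyl glutarate and 1% formaldehyde and sheared to 100 to 1000 bp, per the labels' protocols. Bowtie2, deepTools, MACS2, bedtools and the mm10 build appear in the submitters' processing notes. Their versions and settings, and how replicates and Input entered peak calling, are not stated in the sources used. Each deposited list is 1 narrowPeak table per factor. In it the authors gave each peak a fold enrichment (a ratio of signal over background), a deposited −log10 q value and a deposited summit offset in bp from the peak's start. Fold and −log10 q were used within a list only. The lowest deposited −log10 q of the Mta2 list was 1.31. No other columns of per-sample values were present (0).

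Union regions, nearest genes, positions and shares were computed with Python 3.11.15, numpy 2.4.6, pandas 2.3.3 and scipy 1.17.1 and checked on simulated intervals. Position used the strongest Mta2 summit of each region (the strongest peak where none is Mta2) and 21631 RefSeq protein-coding genes of GRCm38.p6, first within 1 kb of an end, then inside, then outside. Strand and promoter windows came from the RefSeq promoter table (17274 of these genes, 0 windows on chromosome 18). No genome sequence was used, so peaks themselves were not searched for motifs.

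The regions, the 17 gene lists (440 genes, 16 of them in more than 1 list) and the rankings were chosen with earlier results of these data known. Genes were named by the 10 strongest regions, the 10 highest folds at ends without another factor, the 10 highest counts inside genes, the 3 highest folds per list, and all NuRD genes with Zbtb7a. Others are named as list members, by rankings of CpG-rich windows, of width and of density, or as the most frequent inside a list, chosen after their values were seen. Some members of the lists are not reported here.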

Additional observations from a re-analysis of the deposited data

Results flagged for a closer look

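Chromosome Y was left out of the chromosomes used, and it held Mta2-only regions as well. By the same rule there were 25 among 142 regions holding Mta2 and 190 regions in all on Y. On the chromosomes used they were 23165 of 148099 regions holding Mta2 (15.6%). A count of 0 would allow up to 3, but that limit is no expectation for Y. The 25 regions on Y had a median fold of 2.61 and a highest fold of 4.30, and 60 regions on Y held all 3 factors. What underlies these regions was not tested.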

How the results depend on the processing

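No paired analysis was possible because each list pools both replicates and holds no value per mouse, and leaving out a replicate was not possible for the same reason. Intervals cover counting error only, and regions that lie side by side are not independent. The difference in end share from all-3 regions and the counts of both gene lists were chosen after seeing the data. Of the recomputed values 34 stayed within their limits, 57 moved and 0 reversed, and the cause was not tested. The end share in Mta2-only regions minus that in all-3 regions, main value -9.34 points, was negative under all 10 alternatives. Percentages below follow the order at an end, inside, outside, and another factor within 1 kb, each where it moved.

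With −log10 q of at least 10 in all lists the median fold was 4.38, the shares inside 52.4%, outside 43.0% and within 1 kb of another factor 17.4%, and the difference -13.4 points. With that limit on Mta2 alone there were 3558 regions of median fold 4.17, with 4.41%, 49.7%, 45.8% and 21.0%, a difference of -10.7 points, 160 genes, 3 developmental and 4 synaptic. With lists cut to the shortest there were 11795 regions of fold 3.55, with 4.32%, 51.7%, 44.0% and 22.3%, -10.2 points, 521 genes and 7 developmental. Joining peaks up to 500 bp apart gave a fold of 3.02, with 4.01%, 52.8%, 43.2% and 13.6%, and -10.5 points. Calling a peak shared only from 50% covered gave a fold of 3.02, with 5.18% at an end, 40.1% outside and 39.8% within 1 kb of another factor, and -8.92 points. Summits extended by 100 bp gave a fold of 2.99, with 5.80%, 39.5% outside and 30.9%, and -7.86 points. A window of 0.5 kb gave 2.49%, 55.7% and 41.8%, -8.99 points, 587 genes and 8 developmental. A window of 3 kb gave 13.4%, 49.0% and 37.6%, 3099 genes (14.3% of all) and 28 developmental. Using 5′ ends alone gave 2.01%, 55.8% and 42.1%, -7.56 points, 457 genes and 4 synaptic.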

Other observations

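Some Mta2-only regions followed one another along a chromosome with no region of another class between them. Of the 23165 regions, 15841 stood alone in this sense, and 2574 runs held 2, 506 held 3 and 107 held 4. The longest run had 7 regions over 111.0 kb on chromosome 6, in an interval without a protein-coding gene, 81.7 kb from Npvf, a neuropeptide gene. Among 8 runs of 6, some overlapped Sema3a, an axon guidance ligand (122.0 kb), Ccbe1, a gene of lymphatic growth (31.4 kb), Ppp1r12a (76.6 kb) and Mtm1 (92.9 kb).

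The share of Mta2 regions that were Mta2-only ran over 13.6% on chromosome 7 to 17.6% on chromosome 18.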
